A study of Mus musculus with 16 samples.

Results

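The livers compared here came from mice with a hepatic Tsc1 knockout and from wild-type mice, both given Gao-binge ethanol, so the comparison asks what loss of Tsc1 changed in the alcohol-fed liver. The members were the 4 knockout ethanol libraries and the 4 wild-type ethanol libraries, chosen by their sample titles, which is 8 of the 16 libraries of the series. They were compared across the genes that carry a symbol, 48051 of 55487 rows of the count table, of which 14346 passed the filter on low counts and were tested. The 4 groups of the series, 4 libraries each, were Tsc1 knockout with Gao-binge ethanol, wild type with Gao-binge ethanol, Tsc1 knockout on control diet and wild type on control diet. Every liver was of the C57BL/6J strain, and the labels give 10 days as the time for all. The labels do not state sex, age, the Cre driver or the deleted exon. They also do not say that the libraries of a group were separate animals, so a p-value here measures only the variation from library to library, some of which may be technical. PolyA RNA was read as single 75 bp reads from a stranded library kit. Levels are given as CPM, read counts relative to the library total, scaled between libraries and not per gene length, so they compare a gene between libraries and not one gene with another.

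TSC1 and TSC2 form a complex that holds back mTORC1, the kinase complex that couples nutrients to ribosome production, lipid synthesis and the restraint of autophagy. At the lysosome mTORC1 is recruited by Rag GTPases and phosphorylates TFEB and TFE3, the factors that drive lysosomal genes. The control of these factors runs through the Rag GTPases, apart from the control that TSC exerts through Rheb. The Gao-binge regimen combines feeding of an alcohol liquid diet with a last alcohol gavage and gives fatty liver with inflammation in mice.

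Some libraries stood apart within their group. Total counts over genes with a symbol ran from 14.71 to 17.36 M in the knockout and from 17.3 to 21.68 M in wild type. The first principal component of the 8 ethanol libraries held 54% of the variance and separated the genotypes, and knockout library 2 lay farthest out on it and on the second component, which held 16.1%. Precision weights estimated by voom, where values under 1 mark a library that departs from its group, were lowest for knockout library 2 (0.348) and wild-type library 4 (0.488). Knockout library 1 stood alone in its interferon genes, which are described below. Albumin transcripts took 3.77, 3.51, 5.41 and 6.72% of counts in the knockout, against 8.25, 8.32, 9 and 7.93% in wild type (exact two-sided permutation p = 0.0286, the smallest that 4 against 4 libraries can give, 0.0571 without any 1 wild-type library and 0.0286 without any 1 knockout library). The 37 mitochondrially encoded genes of the table took 6.87, 5.90, 8.80 and 9.65% in the knockout, against 5.08, 5.41, 5.84 and 5.55% in wild type (exact permutation p = 0.0286, likewise 0.0571 without any 1 wild-type library and 0.0286 without any 1 knockout library). Neither share overlapped between the genotypes. In bulk tissue a lower level of a hepatocyte transcript can come from fewer hepatocytes or from less RNA per cell, and these cannot be told apart.

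Tsc1 itself was counted at 11.8, 14.9, 14 and 16.4 CPM in the knockout, against 19.2, 19.8, 18.7 and 15.8 CPM in wild type. The groups overlapped, since wild-type library 4 lay below knockout library 4. The difference was -0.36 ± 0.13 log2 (SE, adjusted p = 0.0386 by edgeR's quasi-likelihood test with Benjamini-Hochberg adjustment, used throughout), the exact permutation p was 0.0571, and the knockout mean was 77.7% of the wild-type mean. The call was lost without knockout ethanol library 1 (-0.28), 2 (-0.38) or 3 (-0.34), without wild-type ethanol library 1 (-0.34), 2 (-0.32) or 3 (-0.34), and without wild-type control library 1, 3 or 4 (-0.35 each). Exons outside the deletion and other liver cells also give Tsc1 reads, and so the level is only a partial check of the labels.

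Tsc1 loss after ethanol changed 5551 of 14346 genes (38.7%) at an adjusted p under 0.05, 2811 higher (19.6%) and 2740 lower (19.1%). These shares are the background for every count of list members below. With a fold change of at least 2 as well, 1319 genes were higher (9.19%) and 642 lower (4.48%). The median log2 fold change of all genes was -0.01. With library totals left unscaled it was 0.19, and 3992 genes were called higher and 1243 lower, 76.3% of calls higher against 50.6% with scaled totals. Log2 fold changes below are thus relative to a typical gene that is set near 0. On control diet, in other libraries, knockout against wild type gave 1766 calls (12.3%), 1061 higher (7.4%) and 705 lower (4.91%). The total was 1091 to 1140 without knockout control library 1, 3 or 4 or wild-type control library 1 or 4. Of these, 1353 were also called after ethanol with the same sign, which is 76.6% of the control-diet calls and 24.4% of the ethanol calls, and 10 were called with the opposite sign. Genes named below as changed, Tsc1 aside, were taken from those also called in each of the 16 fits that left out 1 library, which holds for 3721 genes (25.9%). A gene given by its values alone was called as well, unless its adjusted p is printed.

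**Figure D1:**
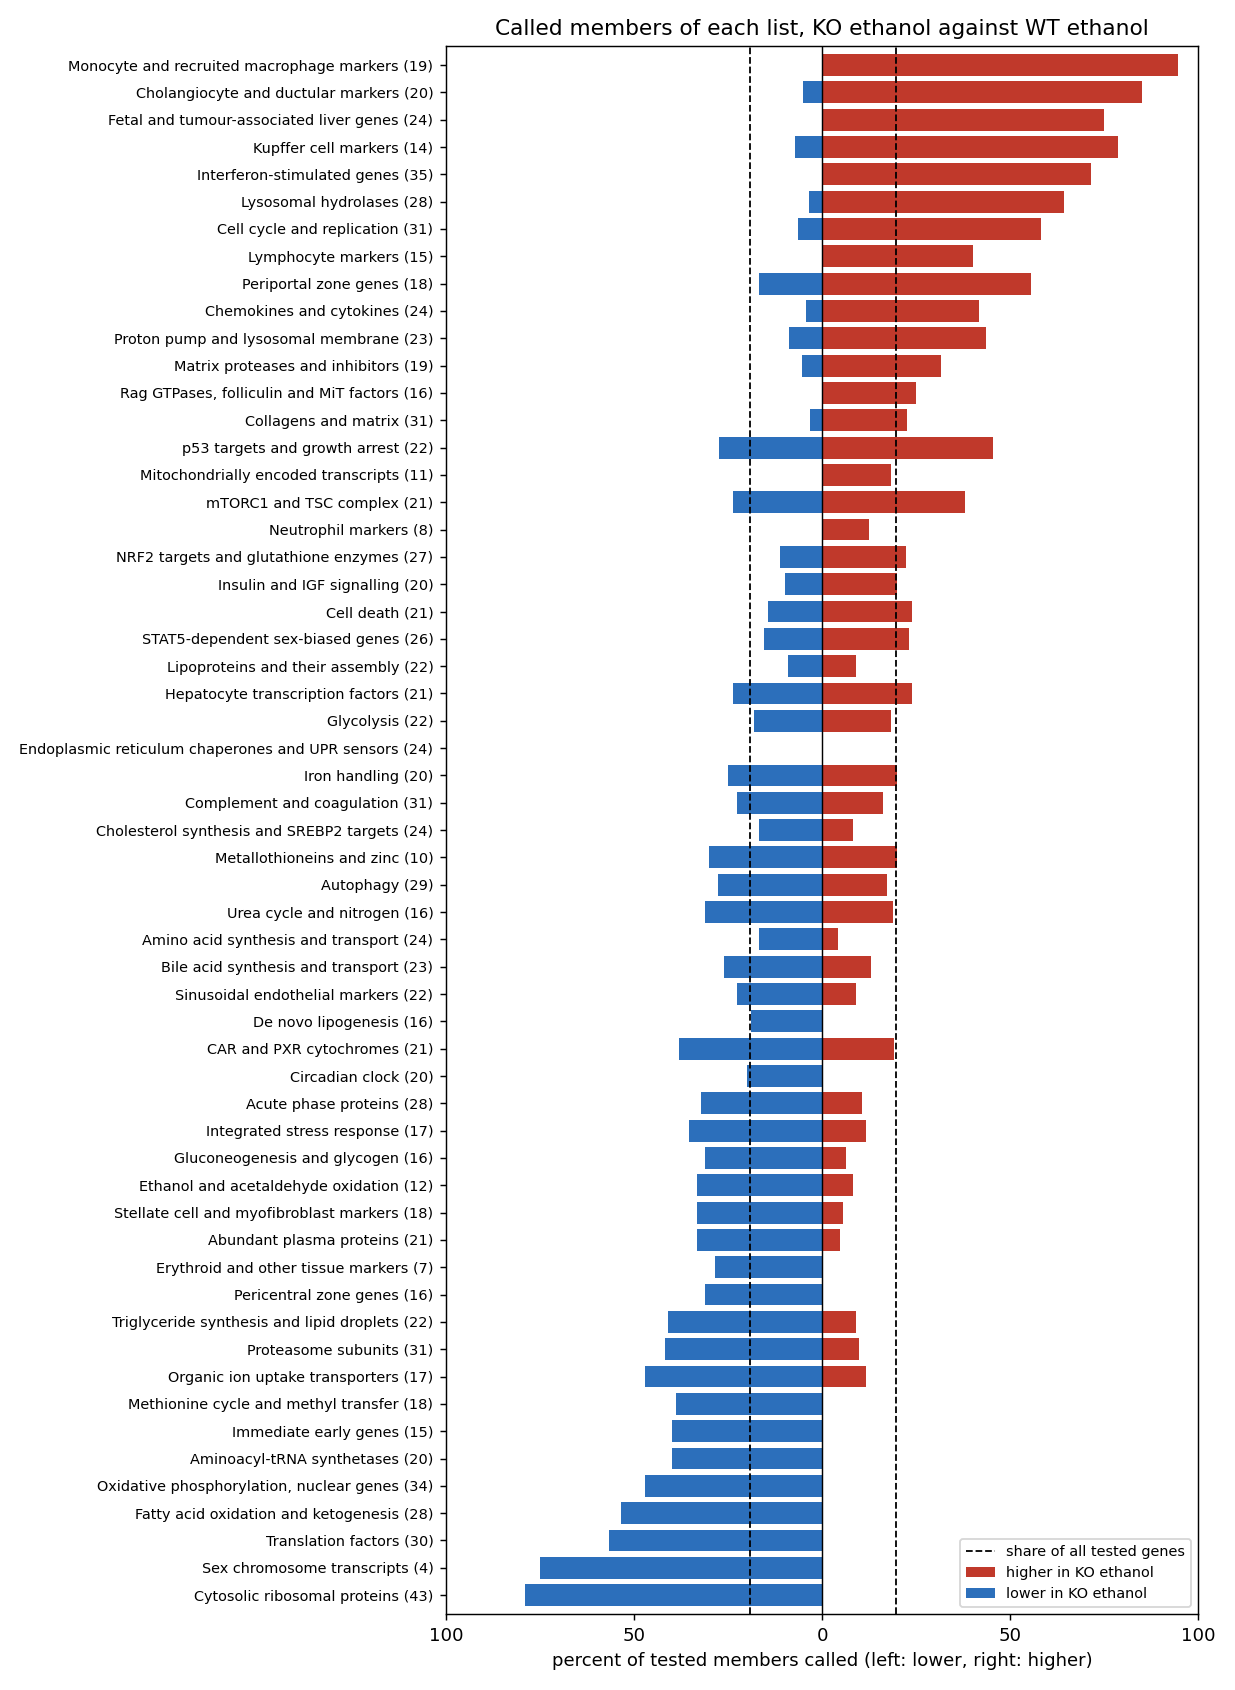
For each gene list, the horizontal axis gives the percent of tested members (number in parentheses) called higher in KO ethanol livers to the right and lower to the left; dashed lines mark the shares of all tested genes, 19.6% higher and 19.1% lower. Monocyte and macrophage markers, cholangiocyte markers and Kupffer cell markers lie far to the right, and cytosolic ribosomal proteins lie far to the left.

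The genes with the largest rises, ranked among those whose groups do not overlap, were a mixed set of secreted, membrane and metabolic genes. The imprinted noncoding RNA H19 was counted at 17.3, 675, 17.4 and 4.06 CPM in knockout libraries and 0.155, 0, 0 and 0 CPM in wild-type libraries. Library 2 held most of its 12537 counts in the knockout, against 3 in all in wild type, a ratio of 4354 per total count with a 95% counting interval of 1490 to 21118. Without that library the knockout had 644 counts and the ratio was 303 (95% counting interval 103 to 1475). Cfap44, named for cilia and flagella, had 357 counts in the knockout and 2 in wild type, a ratio of 186 (95% counting interval 51.1 to 1542). Mmp7, a matrix protease, had 42.2, 92.7, 27 and 20.5 CPM in the knockout, against 0.362, 0.0625, 0.238 and 0.845 CPM in wild type, and its log2 fold change was 6.86 ± 0.69 (SE, adjusted p = 1.22e-05). Gpx3, the secreted glutathione peroxidase, had 578, 1480, 1374 and 869 CPM in knockout libraries and 9.36, 14.2, 10.6 and 19.5 CPM in wild-type libraries. Its log2 fold change was 6.33 ± 0.56 (SE, adjusted p = 4.16e-06). The log2 fold changes on control diet were 6.06 for Cfap44, 6.15 for Mmp7 and 5.71 for Gpx3. H19 was at 4.17 there and was not called (adjusted p = 0.215). A difference between the diets was not called for any of these genes.

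Clec2h, a lectin-like membrane gene, had 32.6, 11.2, 29.1 and 14.8 CPM in the knockout, against 1.29, 0.5, 0.535 and 0.225 CPM in wild type. Epdr1, a secreted ependymin-related gene, had 9.46, 21, 9.75 and 8.74 CPM in knockout libraries and 0.724, 0.313, 0.297 and 0.394 CPM in wild-type libraries with library 2 highest in the knockout. Ubd, an interferon-inducible ubiquitin-like modifier, had 1.08, 13.6, 1.66 and 0.562 CPM in the knockout, against 0.103, 0.125, 0.178 and 0 CPM in wild type. It rose by 5.31 ± 1.09 log2, and by 3.38 without knockout library 2, which held most of its counts. Clec2h and Epdr1 rose by 3.34 and 4.41 log2 on control diet, where Ubd was at 2.64 and not called (adjusted p = 0.0557).

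Falls were led by transporters, receptors and enzymes. Slc22a7, an organic anion transporter of hepatocytes, had 2.11, 0.625, 0.891 and 1.37 CPM in knockout libraries and 46.1, 30, 56 and 28.9 CPM in wild-type libraries, with a log2 fold change of -5.01 ± 0.38 (SE, adjusted p = 1.43e-06). Il1r1, the signalling receptor of interleukin 1, had 30.8, 31.7, 36.4 and 27.9 CPM in the knockout, against 261, 712, 199 and 1070 CPM in wild type. Its wild-type libraries spread widely and its knockout libraries did not, and the log2 fold change was -4.14 ± 0.54 (SE, adjusted p = 7.39e-05). Serpina12, also called vaspin, had 12.1, 1.59, 3.86 and 3.75 CPM in knockout libraries and 52.8, 61.1, 53.3 and 36.4 CPM in wild-type libraries, with a log2 fold change of -3.26 ± 0.48 (SE, adjusted p = 2.06e-04). Hsd3b5, a steroid dehydrogenase of male mouse liver, had 1.02, 0, 0 and 0.125 CPM in the knockout, against 6.51, 9.06, 4.94 and 1.75 CPM in wild type, and its log2 fold change of -4.25 ± 0.81 was -6.89 without knockout library 1. Nat8, an acetyltransferase of the mercapturate path, had 2.11, 1.14, 1.13 and 2.12 CPM in knockout libraries and 16.7, 18.6, 29.6 and 13.5 CPM in wild-type libraries. Scara5, a ferritin receptor, had 1.2, 7.55, 2.85 and 0.624 CPM in the knockout, against 10, 76.6, 21.8 and 65.6 CPM in wild type. The log2 fold changes on control diet were -5.08 for Slc22a7, -2.05 for Serpina12, -2.40 for Hsd3b5 and -3.01 for Nat8. Scara5 (-1.50, adjusted p = 0.269) and Il1r1 (0.11, adjusted p = 0.911) were not called there. Of these genes only Il1r1 had a called difference between the diets.

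Among genes in no list, those with the smallest p were also cleanly separated. Renbp, the renin-binding protein that acts as an N-acetylglucosamine epimerase (GRCm38 chromosome X, 73922121 to 73930850, minus strand), had 35.9, 43.6, 41.2 and 37.7 CPM in knockout libraries and 2.48, 2.56, 1.55 and 2.65 CPM in wild-type libraries, with a log2 fold change of 4.09 ± 0.19 (SE, adjusted p = 6.66e-10). Defb1, an antimicrobial defensin, had 8.85, 9.77, 8.38 and 8.43 CPM in the knockout, against 0.414, 0.625, 0.595 and 0.225 CPM in wild type. Cyfip2, a member of the actin-regulating WAVE complex, had 27.3, 11.8, 32.4 and 24.5 CPM in knockout libraries and 1.34, 1.25, 1.37 and 1.41 CPM in wild-type libraries. The lowest knockout value of both genes was several times the highest wild-type value. Dpp7, a lysosomal dipeptidase outside the lists, rose by only 1.06 ± 0.08 log2, with 33.1, 34.2, 35.4 and 35.9 CPM in the knockout, against 16.3, 17.1, 17 and 16.2 CPM in wild type. Pex16, needed to build peroxisomal membranes, had 58.2, 46.6, 53.5 and 45.2 CPM in knockout libraries and 118, 126, 138 and 129 CPM in wild-type libraries, and its log2 fold change was -1.33 ± 0.13 (SE, adjusted p = 3.70e-06). All of these genes were also called on control diet. The log2 fold changes there were 3.83 for Renbp, 2.91 for Defb1, 3.82 for Cyfip2, 1.24 for Dpp7 and -0.69 for Pex16.

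**Figure D2:**
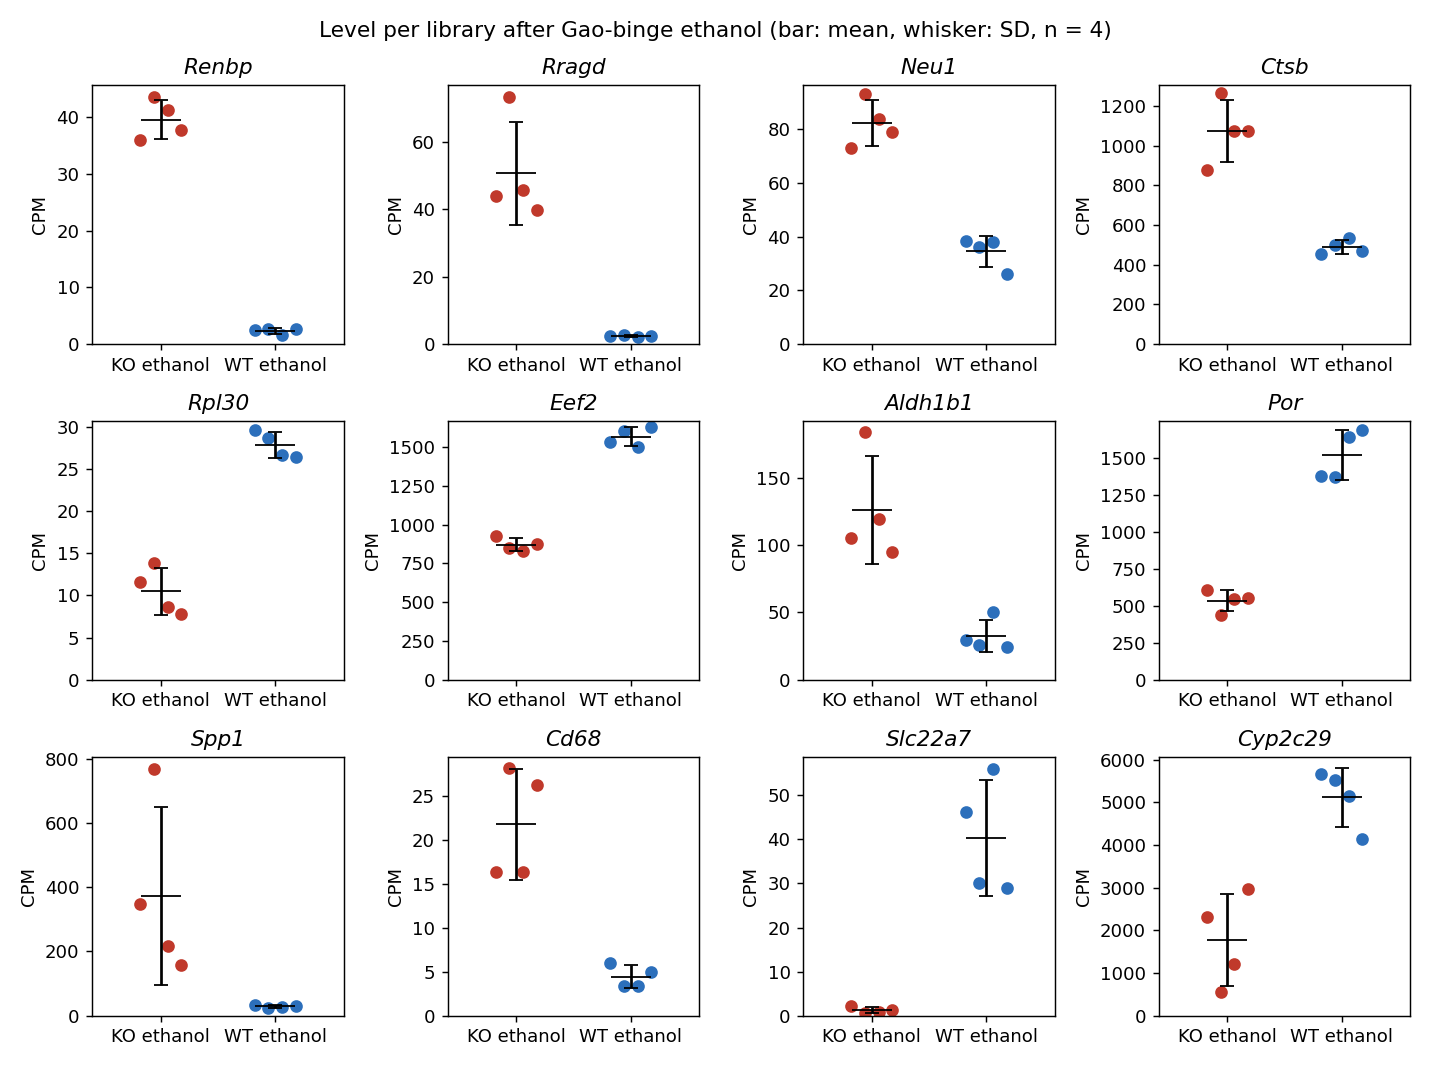
CPM (vertical axis) of 12 genes in each KO ethanol library (red, left) and each WT ethanol library (blue, right); bars are means and whiskers SD over 4 libraries. In each panel the 2 groups do not overlap, and Spp1 and Rragd have KO library 2 above the rest of their group.

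The largest gains in CPM included that of Gpx3, described above. Selenop, the selenium transport protein of plasma, had 6794, 6530, 8534 and 9898 CPM in the knockout, against 4139, 4048, 4157 and 4032 CPM in wild type, and its log2 fold change was 0.96 ± 0.14 (SE, adjusted p = 7.74e-05). B2m, the light chain of class I histocompatibility molecules, had 2819, 2653, 3381 and 3802 CPM in knockout libraries and 1167, 1214, 1559 and 1376 CPM in wild-type libraries. Hpd, an enzyme of tyrosine breakdown, had 2703, 1946, 3317 and 2740 CPM in the knockout, against 1294, 1486, 2136 and 1303 CPM in wild type; knockout library 2 lay below wild-type library 3. Ferritin heavy chain Fth1 and the chaperone clusterin Clu rose by 0.69 ± 0.13 and 0.87 ± 0.16 log2.

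The largest losses in CPM were in plasma proteins and enzymes. Alb fell by 0.95 log2, the serpin Serpina3k by 1.36, the methionine adenosyltransferase Mat1a by 0.63 and the cytochrome P450 gene Cyp2c29 by 1.53. Haptoglobin Hp had 1226, 2046, 1087 and 974 CPM in knockout libraries and 3108, 4406, 3406 and 11717 CPM in wild-type libraries, with a log2 fold change of -2.09 ± 0.40 (SE, adjusted p = 0.00101). Fibrinogen gamma chain Fgg had 2501, 2905, 3009 and 2442 CPM in the knockout, against 4171, 7903, 3292 and 17777 CPM in wild type, and its log2 fold change of -1.61 ± 0.44 was -0.90 without wild-type library 4. Neither Fgg (-1.60) nor Mat1a (-0.48) was called without knockout libraries 1 and 2. Wild-type library 4 was far above its group for Hp and Fgg. Reads of Serpina3k and Cyp2c29 can be shared with close family members, so their split within the family is uncertain.

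Genes around mTORC1 moved in both directions. Of 21 tested members of the list of mTORC1 and TSC complex genes, 8 rose and 5 fell (median 0.15 log2, 0.19 on control diet), and the number that fell was 3 without knockout library 3 or wild-type library 1, and 1 with unscaled totals. Sesn3, a sestrin that restrains mTORC1, had 74.9, 75.5, 71.5 and 77.5 CPM in knockout libraries and 25.5, 15.4, 20.1 and 13.7 CPM in wild-type libraries, with a log2 fold change of 2.0 ± 0.17 (SE, adjusted p = 1.26e-06). Ddit4l, a relative of the mTORC1 inhibitor Ddit4, had 6.57, 9.88, 4.99 and 4.43 CPM in the knockout, against 0.465, 0.438, 0.535 and 0.282 CPM in wild type. Nprl2, a subunit of the GATOR1 complex that signals amino acid lack, rose by 0.88 ± 0.12 log2. Ddit4 itself fell by 1.58 log2 and is taken up with the diets. The translational repressor gene Eif4ebp2 was at 0.15 ± 0.10 log2 (adjusted p = 0.262), and was called with unscaled totals (0.34).

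In the Rag branch 4 genes were called, none of them lower. Of 16 tested genes for Rag GTPases, folliculin and the MiT factors with their targets 4 rose and 0 fell (median 0.11 log2). The share that rose was 25%, against 19.6% of all tested genes. Rragd, a Rag GTPase that is itself a target of MiT factors, had 44, 73.3, 45.7 and 39.8 CPM in knockout libraries and 2.43, 2.63, 2.02 and 2.25 CPM in wild-type libraries, with library 2 highest in the knockout. Rragc, the related RagC gene, had 64.3, 73.1, 68.8 and 78.1 CPM in the knockout, against 48.9, 40.4, 48 and 45.6 CPM in wild type and rose by 0.64 ± 0.10 log2. Flcn, folliculin, which activates RagC and RagD, rose by 0.51 ± 0.16, a call lost without knockout libraries 1 and 2 (0.53). Gpnmb, a membrane glycoprotein that MiT factors induce and macrophages also make, had 1.08, 17.7, 3.68 and 2.69 CPM in knockout libraries and 0.207, 0.25, 0.178 and 0.225 CPM in wild-type libraries. The scaffold subunit gene Lamtor2 was at -0.19 ± 0.10 log2 (adjusted p = 0.16).

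Lysosomal enzyme genes mostly rose. Of 28 tested hydrolases 18 rose and 1 fell, with a median of 0.59 log2 (0.46 on control diet). The sialidase gene Neu1 (GRCm38 chromosome 17, 34931253 to 34935953, plus strand) had 72.9, 93.1, 83.7 and 79 CPM in the knockout, against 38.2, 36, 37.8 and 26 CPM in wild type, and its log2 fold change was 1.25 ± 0.13 (SE, adjusted p = 6.88e-06). The cathepsin gene Ctsb had 880, 1266, 1075 and 1074 CPM in knockout libraries and 454, 500, 536 and 468 CPM in wild-type libraries. Both had knockout library 2 on top and no overlap between the groups. Ppt1, a thioesterase, rose by 0.94 ± 0.10 log2, while Ctsl, a cysteine protease, was at 0.41 ± 0.21 (adjusted p = 0.134) with overlapping groups, and was called without wild-type library 4 (0.66) or with unscaled totals (0.65).

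Genes of the lysosomal membrane and of autophagy were called in both directions. Of 23 proton pump and membrane genes 10 rose and 2 fell. Mcoln1, a calcium channel that TFEB induces, had 60.7, 46.9, 73.3 and 64.6 CPM in the knockout, against 27.6, 31.7, 29.3 and 29.5 CPM in wild type. The pump accessory gene Atp6ap1 rose by 0.73 ± 0.09 log2 and the pump subunit gene Atp6v1b2 by 0.51 ± 0.08, whereas Atp6v1h, a subunit of the same pump, fell by 0.57. Lamp2 was at 0.13 ± 0.11 (adjusted p = 0.367), and was called with unscaled totals (0.32). Autophagy genes were split, with 5 of 29 higher (3 without knockout library 1) and 8 lower, and 11 higher and 3 lower with unscaled totals. Gabarapl1, a relative of LC3, had 670, 497, 576 and 692 CPM in knockout libraries and 294, 193, 294 and 189 CPM in wild-type libraries. The conjugation genes Atg16l1 and Atg12 fell by 0.69 and 0.57 log2, and the mitophagy receptor gene Bnip3 fell by 1.04. Macrophages are rich in lysosomes, and the summed level of 19 monocyte and macrophage markers was 328 to 1228 CPM in the knockout and 100 to 129 CPM in wild type. Much of the knockout sum was Spp1, which is also among the ductular markers below. The part of macrophages in the lysosomal values was not tested.

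The promoters of these genes could be searched for the E-box that MiT factors bind. RefSeq promoters of GRCm38.p6, from 250 bases before to 50 after the annotated start, were searched for the letters TCACGTG on either strand. A gene was counted if any of its promoters held them. They were present for 17 of 54 tested members of the Rag, hydrolase and proton pump lists with a promoter in the table (31.5%). The letters were present for 8 of the 26 such members that rose (30.8%), for 721 of 10408 tested genes with a promoter in the table (6.93%) and for 1160 of all 27025 genes there (4.29%). The promoters of Mcoln1 and Rragc are shown as members that rose and hold the motif, which capitals mark. In TCACGTGA a match on each strand overlaps the other. The Mcoln1 promoter is chr8:3500269-3500568 and the Rragc promoter is chr4:123917183-123917482, both on the plus strand.
Mcoln1: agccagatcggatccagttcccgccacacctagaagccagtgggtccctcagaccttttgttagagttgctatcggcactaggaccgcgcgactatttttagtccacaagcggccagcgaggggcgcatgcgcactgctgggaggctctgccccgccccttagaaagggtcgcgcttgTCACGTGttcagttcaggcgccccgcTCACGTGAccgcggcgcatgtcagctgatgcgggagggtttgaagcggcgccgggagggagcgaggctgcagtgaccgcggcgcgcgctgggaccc
Rragc: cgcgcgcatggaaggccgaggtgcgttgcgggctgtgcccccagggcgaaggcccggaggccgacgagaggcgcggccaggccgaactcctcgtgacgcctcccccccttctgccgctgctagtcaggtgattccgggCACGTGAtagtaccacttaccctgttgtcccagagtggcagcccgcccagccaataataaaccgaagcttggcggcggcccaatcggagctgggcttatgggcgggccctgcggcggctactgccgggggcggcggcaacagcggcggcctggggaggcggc
The first and last matches began 72 and 45 bases before the start of Mcoln1, and the single match began 112 bases before that of Rragc. A match describes the letters, and binding was not measured.

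Most tested ribosomal protein genes fell. Of 43 tested cytosolic ribosomal protein genes 34 fell and 0 rose, with a median of -0.75 log2 (-0.54 on control diet), and knockout libraries 3 and 4 had the lowest scores. Rpl30, of the large subunit, had 11.6, 13.8, 8.68 and 7.81 CPM in the knockout, against 29.6, 28.6, 26.6 and 26.4 CPM in wild type. Rps9, of the small subunit, had 90.2, 92.4, 70.7 and 65.7 CPM in knockout libraries and 156, 169, 167 and 178 CPM in wild-type libraries, and its log2 fold change was -1.07 ± 0.12 (SE, adjusted p = 1.22e-05). Ribosomal protein genes have many near-identical pseudogene copies, so counts per member are uncertain. Elongation factor gene Eef2 had 925, 849, 833 and 877 CPM in the knockout, against 1531, 1606, 1503 and 1630 CPM in wild type, with a log2 fold change of -0.85 ± 0.10 (SE, adjusted p = 1.91e-05). Its relative Eef1b2 fell by 0.99 log2 and the initiation factor subunits Eif3m and Eif3e fell by 0.63 and 0.48. In all, 17 of 30 translation factors fell (10 without knockout library 3, 11 with the 8 ethanol libraries alone, and 7 with unscaled totals) and 0 rose.

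Genes of tRNA charging and protein breakdown were also called lower more than higher, with counts that moved between fits. Of 20 aminoacyl-tRNA synthetases 8 fell and 0 rose. The first count was 4 without knockout library 1, wild-type library 4 or scaling, and 5 without knockout library 3 or wild-type library 3. The aspartyl enzyme Dars was at -0.69 ± 0.11 log2 and the bifunctional Eprs at -0.60 ± 0.12. Of 31 proteasome subunits 13 fell and 3 rose. The number that fell was 7 without knockout library 3 or 4, 6 without wild-type library 2, 8 without wild-type library 4 or wild-type control library 4, and 3 with unscaled totals, where 5 rose. The number that rose was 1 without wild-type library 1. The catalytic subunit gene Psmb5 had 21.4, 24.2, 20 and 17 CPM in knockout libraries and 27.4, 34.8, 32.2 and 31.6 CPM in wild-type libraries.

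Nuclear and mitochondrially encoded genes of respiration had medians of opposite sign. Of 34 nuclear-encoded respiratory chain and ATP synthase genes 16 fell and 0 rose (median -0.28 log2), with 9 lower without knockout library 4, 7 without wild-type library 3, 6 with the 8 ethanol libraries alone, and 3 with unscaled totals. The complex I gene Ndufa9 had 71.9, 57.3, 65.5 and 56.2 CPM in the knockout, against 86.4, 90.9, 96.1 and 81.6 CPM in wild type, and the complex III gene Uqcrc2 fell by 0.45 log2. Of 11 tested mitochondrially encoded transcripts 2 rose and 0 fell (median 0.34 log2, 0.19 without knockout library 4). Without knockout library 2, whose score of -0.22 lay below 0.21 to 0.76 in the other 3 libraries of its group, 8 rose and the median was 0.51. With unscaled totals 10 rose (median 0.51), as without knockout libraries 1 and 2 (median 0.65), and with the 8 ethanol libraries alone 0 were called. The oxidase subunit gene mt-Co1 had 14906, 12649, 21653 and 25081 CPM in knockout libraries and 12996, 13626, 17165 and 16048 CPM in wild-type libraries, so its groups overlapped (adjusted p = 0.203), and it was called without knockout library 2 (0.46 log2) or with unscaled totals (0.49).

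In lipid metabolism more genes fell than rose. Of 28 genes of fatty acid oxidation and ketogenesis 15 fell and 0 rose (median -0.49 log2, -0.33 on control diet), with 9 lower when knockout libraries 1 and 2 were both left out. Acadvl, a very-long-chain acyl-CoA dehydrogenase, had 106, 72.8, 106 and 90.4 CPM in the knockout, against 166, 163, 169 and 160 CPM in wild type, and its log2 fold change was -0.81 ± 0.11 (SE, adjusted p = 5.37e-05). The thiolases Acaa2 and Acaa1a fell by 0.92 and 0.88 log2.

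In de novo lipogenesis 3 of 16 genes fell (18.8%, close to the 19.1% of all tested genes) and 0 rose. The median of -0.25 log2 was -0.09 without knockout library 2 and 0.04 without knockout libraries 1 and 2. Malic enzyme Me1, a source of NADPH, had 51.5, 39, 88.3 and 90.4 CPM in knockout libraries and 185, 150, 161 and 122 CPM in wild-type libraries. Thrsp, a lipogenic nuclear protein, had 246, 75.3, 449 and 411 CPM in the knockout, against 1004, 1816, 1547 and 848 CPM in wild type. Scd1, the stearoyl desaturase, did not follow them, at 5634, 1540, 10314 and 9959 CPM in knockout libraries and 4050, 4313, 3622 and 3786 CPM in wild-type libraries (adjusted p = 0.183), with knockout library 2 far below the other 3, and it was called without that library (1.13 log2). Of 22 triglyceride and lipid droplet genes 9 fell and 2 rose. Hilpda, an inhibitor of lipolysis, had 1.69, 1.7, 2.26 and 2.93 CPM in the knockout, against 12.4, 5.44, 8.03 and 14.2 CPM in wild type. The droplet coat gene Plin5 fell by 1.64 log2 and the acyltransferase Dgat1 by 0.52, whereas Hsd17b13, a droplet protein of fatty liver, rose by 0.76 ± 0.13.

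Sterol and lipoprotein genes had few calls as groups. Of the bile acid genes 13% rose and 26.1% fell, against 19.6% and 19.1% of all tested genes. In cholesterol synthesis 2 of 24 rose and 4 fell (2 fell with unscaled totals or without knockout libraries 1 and 2). Pmvk, the phosphomevalonate kinase, fell by 1.24 log2. In the lipoprotein list 2 of 22 rose and 2 fell, and 7 rose with unscaled totals. Lpl, lipoprotein lipase, is scarce in adult hepatocytes and had 44.6, 92.1, 35.4 and 28.2 CPM in knockout libraries and 6.82, 13.8, 7.91 and 13.5 CPM in wild-type libraries. Apom, the carrier of sphingosine phosphate, had 315, 285, 272 and 283 CPM in the knockout, against 187, 184, 169 and 190 CPM in wild type, and Apoe was at 0.25 ± 0.14 log2 (adjusted p = 0.151), and was called with unscaled totals (0.45). In bile acid synthesis and transport 3 of 23 rose and 6 fell (3 fell with unscaled totals). Cyp8b1, the sterol 12-alpha-hydroxylase, had 650, 217, 807 and 767 CPM in knockout libraries and 206, 251, 314 and 122 CPM in wild-type libraries, so knockout library 2 lay inside the wild-type range, and its log2 fold change was 1.45 ± 0.36 (SE, adjusted p = 0.00523). Slc10a2, the apical bile salt transporter, had 2.65, 8.97, 7.49 and 6.18 CPM in the knockout, against 39.5, 53.5, 42.8 and 105 CPM in wild type and fell by 3.25 log2.

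Among the called genes of alcohol oxidation more fell than rose. Of 12 genes of ethanol and acetaldehyde oxidation 4 fell and 1 rose. Aldh2, the main mitochondrial acetaldehyde dehydrogenase, had 1683, 1151, 1652 and 1668 CPM in knockout libraries and 2117, 2076, 2471 and 2291 CPM in wild-type libraries, with a log2 fold change of -0.54 ± 0.13 (SE, adjusted p = 0.00445). Its cytosolic relative Aldh1a1 fell by 1.11 and the alcohol dehydrogenase Adh5 by 0.71. The rise was that of Aldh1b1, another mitochondrial aldehyde dehydrogenase, with 105, 184, 119 and 95 CPM in the knockout, against 29.8, 26.2, 50 and 24.1 CPM in wild type, and its log2 fold change was 1.95 ± 0.27 (SE, adjusted p = 7.74e-05). Cyp2e1, the ethanol-inducible cytochrome P450, had 4383, 1431, 4409 and 4187 CPM in knockout libraries and 6478, 7242, 7901 and 5333 CPM in wild-type libraries, with knockout library 2 lowest. Catalase (Cat), a minor path of ethanol oxidation, was at 0.30 ± 0.19 log2 (adjusted p = 0.209) and was called without knockout library 2 (0.45) or with unscaled totals (0.48).

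Among drug metabolism genes more fell than rose. Of 21 genes of the CAR and PXR list 4 rose and 8 fell (median -0.51 log2, -0.16 on control diet, and 4 fell with unscaled totals). Por, the reductase that feeds electrons to microsomal cytochromes P450 (GRCm38 chromosome 5, 135670033 to 135735326, plus strand), had 606, 439, 544 and 552 CPM in the knockout, against 1374, 1369, 1640 and 1686 CPM in wild type, and its log2 fold change was -1.5 ± 0.15 (SE, adjusted p = 5.90e-06). Nr1i2, which encodes the receptor PXR, had 60.1, 42.9, 51.8 and 75 CPM in knockout libraries and 160, 136, 135 and 137 CPM in wild-type libraries and fell by 1.31 log2. Against this direction Cyp2f2, a cytochrome P450 of the periportal zone, had 1396, 899, 1911 and 1925 CPM in the knockout, against 567, 673, 883 and 742 CPM in wild type. Of 27 NRF2 targets and glutathione enzymes 6 rose, among them G6pdx (1.59 ± 0.20 log2), which makes NADPH, and the peroxidase Gpx1 (0.75 ± 0.14). In that list 3 fell (5 without wild-type library 1 and 1 without wild-type library 3). In the methionine cycle 7 of 18 fell and 0 rose, with 4 lower without wild-type library 3 and 3 with unscaled totals or without knockout libraries 1 and 2. Dmgdh, a dehydrogenase of choline breakdown, fell by 0.86 log2.

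Pericentral genes that were called were lower, and most periportal genes that were called were higher. Of 16 pericentral genes 0 rose and 5 fell (3 with unscaled totals), with Oat, ornithine aminotransferase, at 548, 172, 367 and 442 CPM in knockout libraries and 950, 927, 1718 and 1070 CPM in wild-type libraries. The secreted Lect2 and the calcium-binding Rgn fell by 0.98 and 0.67 log2, the call of Rgn being lost with unscaled totals (-0.50). Of 18 periportal genes 10 rose and 3 fell (median 0.63 log2). Etnppl, a phospho-lyase that breaks down phosphoethanolamine, had 258, 122, 356 and 304 CPM in the knockout, against 41.2, 70.5, 64.4 and 35 CPM in wild type, with a log2 fold change of 2.3 ± 0.29 (SE, adjusted p = 4.91e-05). Ctsc, a dipeptidyl peptidase, rose by 1.94 ± 0.25 log2 and the cadherin Cdh1 by 1.54 ± 0.22, both also genes of other cell types. In the urea cycle list 3 of 16 rose and 5 fell. The ornithine carrier gene Slc25a15 had 347, 290, 414 and 234 CPM in knockout libraries and 810, 695, 591 and 916 CPM in wild-type libraries. Hal, which opens histidine breakdown, had 234, 319, 400 and 328 CPM in the knockout, against 137, 139, 231 and 153 CPM in wild type, Otc rose by 0.65 ± 0.13 log2, and Cps1 was at -0.21 ± 0.17 (adjusted p = 0.362).

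Glucose genes were called in both directions. In glycolysis 4 of 22 rose (7 with unscaled totals) and 4 fell. The glucose transporter Slc2a1 rose by 0.93 ± 0.13 log2, while lactate dehydrogenase Ldha fell by 0.92 and Pgk1 by 0.77. In gluconeogenesis 1 of 16 rose and 5 fell (3 without knockout libraries 1 and 2). Foxo1, the forkhead factor that insulin restrains, had 41.6, 39.3, 62.6 and 49.8 CPM in knockout libraries and 109, 116, 117 and 117 CPM in wild-type libraries. Pcx, pyruvate carboxylase, had 468, 387, 535 and 445 CPM in the knockout, against 567, 567, 672 and 821 CPM in wild type, a call lost without knockout libraries 1 and 2 (-0.42 log2) and with the 8 ethanol libraries alone (-0.50). In insulin and IGF signalling 4 of 20 rose (2 without knockout library 2) and 2 fell. Akt1 rose by 0.68 ± 0.10 log2 and the receptor kinase Erbb3 by 0.82 ± 0.14, and the PI3-kinase regulatory subunit Pik3r1 fell by 1.61.

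Plasma protein genes were called lower more than higher, while hepatocyte transcription factors and complement and coagulation genes were called in both directions. Of 21 hepatocyte transcription factors 5 rose and 5 fell (6 and 3 with unscaled totals). Of 21 plasma protein genes 1 rose and 7 fell, Itih1 and Fetub by 0.65 and 0.55 log2, and 6 rose with unscaled totals. In complement and coagulation 5 of 31 rose and 7 fell (2 fell without knockout libraries 1 and 2, and 10 rose and 4 fell with unscaled totals). The lectin Mbl2 had 522, 498, 546 and 440 CPM in knockout libraries and 236, 240, 157 and 226 CPM in wild-type libraries. Hc, which encodes complement C5, had 1122, 922, 1143 and 1154 CPM in the knockout, against 700, 636, 635 and 708 CPM in wild type. F11, a coagulation factor, had 32, 17.2, 25.7 and 28.3 CPM in knockout libraries and 65.7, 48.3, 65.9 and 48.6 CPM in wild-type libraries.

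The median of the acute phase list hung on 1 wild-type library. Of 28 acute phase genes 9 fell and 3 rose with a median of -0.68 log2, but the median was 0.21 and 5 rose without wild-type library 4. The score of that library was 1.20 and those of the other 3 wild-type libraries ran from -0.50 to -0.07. The number that rose was 1 without knockout library 2 or wild-type library 1 or 3. When knockout libraries 1 and 2 were both left out, 5 fell. Crp, which in mice responds little to inflammation, had 537, 312, 379 and 534 CPM in the knockout, against 261, 240, 282 and 217 CPM in wild type and rose by 0.82 ± 0.17 log2. Il6ra, the receptor for interleukin 6, had 66, 72.1, 79 and 85 CPM in knockout libraries and 113, 116, 159 and 133 CPM in wild-type libraries.

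Iron and zinc genes included a split between the hepcidins. Hamp2 had 47.3, 27.1, 35.2 and 59.4 CPM in the knockout, against 3.77, 5, 8.98 and 3.72 CPM in wild type, with a log2 fold change of 2.98 ± 0.37 (SE, adjusted p = 5.01e-05), while Hamp, the hormone that limits iron export, was at -1.88 ± 0.72 log2 with overlapping groups (adjusted p = 0.054) and was called without knockout library 2 (-2.30) or wild-type library 3 (-2.24), or with DESeq2 (-1.88). Of 20 iron genes 4 rose (7 with unscaled totals) and 5 fell. Slc39a14, a metal importer, had 238, 191, 280 and 228 CPM in knockout libraries and 665, 909, 490 and 1727 CPM in wild-type libraries. Of 10 metallothionein and zinc genes 2 rose, the importers Slc39a4 and Slc39a8 by 1.08 ± 0.16 and 0.65 ± 0.10 log2, and 3 fell (1 without wild-type library 4). Mt1, a metallothionein, had 652, 690, 905 and 645 CPM in the knockout, against 1992, 3552, 1271 and 4760 CPM in wild type and was not called (adjusted p = 0.0746), although its groups did not overlap. It was called with the 8 ethanol libraries alone (-1.99 log2), with DESeq2 (-2.0), and without knockout control library 3 (-2.0) or wild-type control library 3 (-1.99).

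Of 17 uptake transporters for organic ions 8 fell and 2 rose (median -0.68 log2, -0.34 without knockout library 2). Slc22a3, an organic cation carrier, had 2.89, 2.5, 2.61 and 3.56 CPM in knockout libraries and 18.8, 13.4, 25.8 and 15.4 CPM in wild-type libraries, and its log2 fold change was -2.67 ± 0.24 (SE, adjusted p = 1.82e-06). Slc17a8, a glutamate transporter, had 2.59, 2.55, 2.38 and 4.81 CPM in the knockout, against 39.6, 14.5, 32.5 and 9.97 CPM in wild type. Of 26 sex-biased genes that depend on STAT5 6 rose (23.1%) and 4 fell (15.4%), close to the 19.6% and 19.1% of all tested genes. Of these, 5 rises and 4 falls were at least 2-fold. Sult1e1, the estrogen sulfotransferase, had 0.904, 1.48, 1.31 and 3.81 CPM in knockout libraries and 4.55, 5.25, 9.52 and 15.2 CPM in wild-type libraries. Y-linked genes were counted in all 8 libraries. Of the 4 tested sex chromosome transcripts 3 fell and 0 rose, with Ddx3y, an RNA helicase, at 65.5, 56.2, 58.5 and 59.3 CPM in the knockout, against 123, 104, 108 and 137 CPM in wild type, and the Y-linked Eif2s3y and Uty lower by a log2 fold change of -0.56 ± 0.10 and -0.50 ± 0.12, the call of Uty being lost with unscaled totals (-0.29).

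Most fetal liver genes and 18 of 31 cell cycle genes rose. Of 24 fetal and tumour-associated liver genes 18 rose and 0 fell (median 1.96 log2, 1.66 on control diet). Cd24a, a surface glycoprotein, had 20.3, 52.1, 14.3 and 12.5 CPM in knockout libraries and 2.95, 2.56, 2.56 and 2.14 CPM in wild-type libraries, with knockout library 2 highest. The small adaptor genes Bex2 and Bex1 rose by 5.46 ± 0.81 and 3.98 ± 0.56 log2, and Bex4 had 0.723, 1.25, 0.832 and 0.5 CPM in the knockout, against 0.0517, 0, 0.119 and 0.113 CPM in wild type. Of 31 cell cycle and replication genes 18 rose and 2 fell (median 1.03 log2, 0.17 on control diet). Without knockout libraries 1 and 2, 9 rose and the median was 0.57. E2f1, a driver of entry into S phase, had 6.93, 8.29, 6.89 and 6.87 CPM in knockout libraries and 2.95, 2.88, 2.5 and 1.86 CPM in wild-type libraries. Mki67, the proliferation antigen, had 6.51, 13.8, 5.35 and 3.81 CPM in the knockout, against 0.982, 1.13, 1.73 and 2.03 CPM in wild type, with library 2 highest, and the cyclin gene Ccnd2 rose by 1.18 ± 0.20 log2.

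Growth arrest and death genes moved both ways. Of 22 genes that p53 induces or that mark growth arrest 10 rose and 6 fell (6 rose without knockout libraries 1 and 2). Eda2r, a receptor of the tumour necrosis factor receptor family, rose by 3.3 ± 0.50 log2, the kinase Plk2 by 1.5 ± 0.22 and the pore former Bax by 0.78 ± 0.14. Gadd45b, a stress response gene, had 2.23, 3.29, 3.21 and 4.37 CPM in knockout libraries and 11, 17.8, 21.1 and 10.6 CPM in wild-type libraries. Of 21 cell death genes 5 rose and 3 fell. Mlkl, the effector of necroptosis, had 12, 14.4, 9.69 and 11.9 CPM in the knockout, against 4.81, 7.44, 4.22 and 5.97 CPM in wild type. Bcl2l11, which encodes the BH3-only protein BIM, had 4.4, 9.37, 7.79 and 6.12 CPM in knockout libraries and 50.5, 21.9, 37.8 and 24.4 CPM in wild-type libraries. Tnfrsf1b, a receptor for tumour necrosis factor, had 32.4, 29.5, 26.8 and 30.5 CPM in the knockout, against 78.9, 71.6, 44.5 and 59.1 CPM in wild type.

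Ductular markers rose as a list. Of 20 cholangiocyte and ductular markers 17 rose and 1 fell (median 2.19 log2, 1.68 on control diet, and 1.25 without knockout libraries 1 and 2). The summed level of the 20 tested markers was 402 to 1210 CPM in the knockout and 239 to 264 CPM in wild type. Spp1, osteopontin, had 349, 770, 216 and 158 CPM in knockout libraries and 33.3, 24.8, 25.6 and 30.9 CPM in wild-type libraries. It is also counted among the monocyte and recruited macrophage markers, and it made up much of the knockout sum of both lists. Epcam, an adhesion gene, had 9.4, 18.3, 5.17 and 3.56 CPM in the knockout, against 1.6, 1.5, 0.892 and 1.3 CPM in wild type, and Sox9 was at 0.30 ± 0.28 (adjusted p = 0.419). Library 2 was highest for both called genes.

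Most macrophage markers rose as well. Of 19 monocyte and recruited macrophage markers 18 rose and 0 fell (median 2.37 log2, 0.59 on control diet). Clec7a, the beta-glucan receptor, had 7.47, 18.6, 4.87 and 4.56 CPM in knockout libraries and 1.4, 0.938, 0.892 and 0.732 CPM in wild-type libraries. Cd68, a lysosomal glycoprotein of macrophages, had 16.3, 28.2, 16.3 and 26.2 CPM in the knockout, against 6, 3.38, 3.33 and 5.01 CPM in wild type. Of 14 Kupffer cell markers 11 rose and 1 fell (6 rose without knockout libraries 1 and 2). Csf1r, the receptor for macrophage colony-stimulating factor, had 35.5, 58.8, 24.3 and 26.5 CPM in knockout libraries and 12.6, 9.94, 9.64 and 15.5 CPM in wild-type libraries. Clec4f, confined to Kupffer cells in mouse liver, had 73.8, 68.8, 39.2 and 47.2 CPM in the knockout, against 28.9, 25, 27.2 and 34.2 CPM in wild type, and Vsig4, a complement receptor, had 21.4, 31.2, 13.8 and 19.2 CPM in knockout libraries and 6.15, 7.88, 6.19 and 7.77 CPM in wild-type libraries. The wild-type scores did not overlap between the diets, as the monocyte score ran from 0.67 to 2.19 in knockout and from -0.07 to 0.11 in wild-type ethanol libraries, and from 0.92 to 1.29 in knockout and 0.31 to 1.04 in wild-type control libraries.

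Called lymphocyte and cytokine genes were mostly higher, and few neutrophil markers were called. The share that rose was 40% of lymphocyte markers, 41.7% of chemokines and cytokines and 12.5% of neutrophil markers, against 19.6% of all tested genes. Of 15 lymphocyte markers 6 rose (3 without knockout library 2) and 0 fell, with a median of 1.08 log2. Without knockout libraries 1 and 2 only 1 rose and the median was 0.35. The kappa light chain Igkc had 15.8, 17.8, 12 and 11.2 CPM in the knockout, against 4.19, 4.5, 8.51 and 8.45 CPM in wild type, a call lost without knockout libraries 1 and 2 (0.86 log2). Of 8 neutrophil markers that were tested, of 18 listed, 1 rose and 0 fell, and their summed level was 24.6 to 50.5 CPM in the knockout and 22.1 to 52.1 CPM in wild type. In chemokines and cytokines 10 of 24 rose and 1 fell. Cxcl12, which holds cells that carry CXCR4, had 299, 221, 256 and 262 CPM in knockout libraries and 126, 148, 162 and 116 CPM in wild-type libraries. Cxcl16, a membrane-bound chemokine, had 8.37, 16.4, 8.86 and 8.99 CPM in the knockout, against 3.93, 3.94, 4.22 and 2.37 CPM in wild type. Ccl2, which draws monocytes, rose by 2.81 ± 0.60 log2 at no more than 2.47 CPM.

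Interferon-stimulated genes were called widely, but 1 library weighed on them. Of 35 tested 25 rose and 0 fell, with a median of 1.49 log2 (0.10 on control diet). Without knockout library 1, whose score of 2.44 compares with 0.49 to 0.60 in the other 3, the median was 0.59 and 13 rose, and without knockout libraries 1 and 2 it was 0.53 and 10 rose. With the 8 ethanol libraries alone 11 rose at a median of 1.51, and with voom 11 at 1.04. Scores ran from -0.18 to 0.43 in wild-type ethanol libraries, below 0.55 to 0.98 in knockout and 0.54 to 0.64 in wild-type control libraries. Knockout ethanol libraries other than library 1 thus scored near the control libraries, and wild-type ethanol libraries scored lower. Oas3, a synthetase that senses double-stranded RNA, had 5.9, 3.18, 1.55 and 1.12 CPM in knockout libraries and 0.207, 0.563, 0.119 and 0.225 CPM in wild-type libraries. Ddx58, which encodes the RNA sensor RIG-I, had 83.3, 33.2, 43.3 and 46.7 CPM in the knockout, against 26.5, 23.9, 25 and 21.1 CPM in wild type. Cxcl9, a chemokine induced by interferon gamma, had 10.1, 10.9, 7.07 and 5.37 CPM in knockout libraries and 1.96, 2, 3.03 and 3.49 CPM in wild-type libraries, with knockout libraries 1 and 2 alike. The signalling factor Stat2 was at 0.67 ± 0.29 log2 (adjusted p = 0.0767) and was called without knockout control library 3 (0.67), with DESeq2 (0.67) or with unscaled totals (0.88).

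In RefSeq promoters of GRCm38.p6 the letters GAAANNGAAA, of the interferon-stimulated response element, were found on either strand in 17 of 26 tested interferon list members with a promoter in the table (65.4%). They were found in 12 of the 18 that rose (66.7%), in 402 of 10408 tested genes (3.86%) and in 1079 of all 27025 (3.99%). Oas3 and Ddx58 are shown as members that rose and hold the motif, in capitals. They lie at chr5:120777610-120777909 and chr4:40239776-40240075, both on the minus strand and printed in the sense of the gene.
Oas3: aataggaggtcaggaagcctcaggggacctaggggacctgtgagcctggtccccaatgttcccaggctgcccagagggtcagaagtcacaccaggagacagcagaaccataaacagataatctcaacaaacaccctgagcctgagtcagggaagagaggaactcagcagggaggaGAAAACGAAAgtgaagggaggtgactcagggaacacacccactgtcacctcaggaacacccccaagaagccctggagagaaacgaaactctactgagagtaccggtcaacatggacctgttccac
Ddx58: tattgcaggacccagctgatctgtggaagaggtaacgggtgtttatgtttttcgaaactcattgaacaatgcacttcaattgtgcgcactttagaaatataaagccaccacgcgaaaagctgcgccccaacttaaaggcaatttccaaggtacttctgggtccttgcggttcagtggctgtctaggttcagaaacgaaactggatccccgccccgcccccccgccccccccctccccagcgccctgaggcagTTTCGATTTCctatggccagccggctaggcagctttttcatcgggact
The match began 75 bases before the start of Oas3 and, on the other strand, at base 3 after that of Ddx58.

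**Figure D3:**
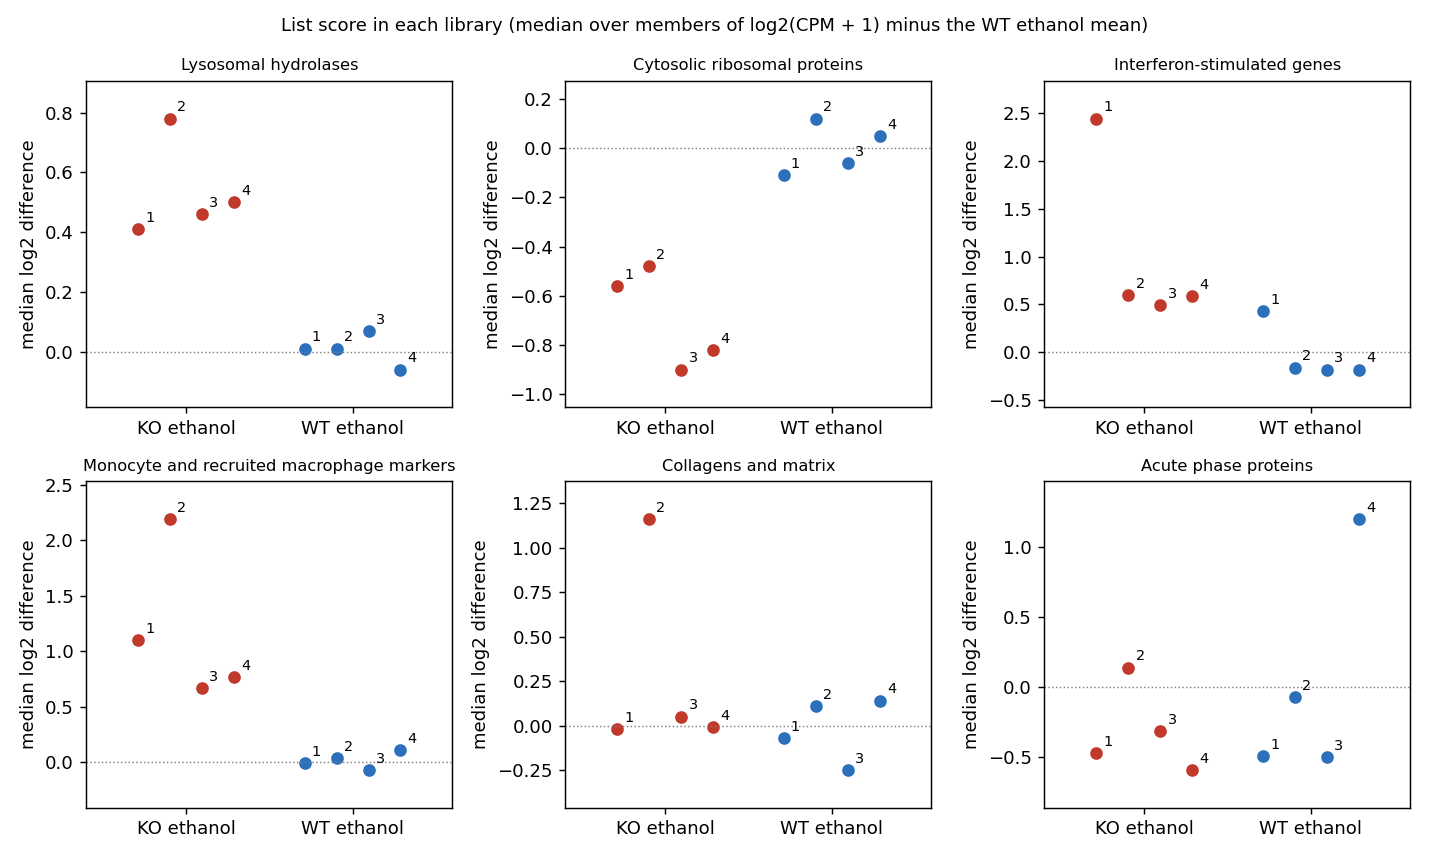
Score of 6 lists in each library (median over members of log2(CPM + 1) minus the WT ethanol mean, vertical axis), KO ethanol in red on the left and WT ethanol in blue on the right, with library numbers. KO library 1 stands alone for interferon genes (2.44), KO library 2 for collagens (1.16) and WT library 4 for acute phase genes (1.20), while hydrolase and ribosomal protein scores do not overlap between the groups.

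Matrix genes as a list depended on a single library. Of 31 collagen and matrix genes 7 rose and 1 fell with a median of 0.54 log2, but without knockout library 2 the median was -0.02 and 2 rose, and without wild-type library 3 there were 4. Col1a1, the main fibrillar collagen of scar, had 12.8, 53.1, 9.39 and 9.05 CPM in the knockout, against 3.77, 5.81, 2.62 and 5.52 CPM in wild type, and rose by 2.25 ± 0.59 log2, or by 1.23 without knockout library 2, and was not called without knockout libraries 1 and 2 (1.06). Col5a2, of the fibril-forming type V collagen, had 104, 164, 115 and 95.9 CPM in knockout libraries and 2.27, 2.13, 1.84 and 2.99 CPM in wild-type libraries, with a log2 fold change of 5.69 ± 0.29 (SE, adjusted p = 6.41e-09). Its log2 fold change on control diet was 5.39. Of 19 matrix proteases and inhibitors 6 rose and 1 fell. Mmp15, a membrane protease, had 64.9, 52.1, 62 and 59.2 CPM in the knockout, against 39.1, 27.5, 30.4 and 10.7 CPM in wild type, and the inhibitor gene Timp3 had 9.04, 20.4, 10.3 and 11.1 CPM in knockout libraries and 21.3, 20.9, 24.8 and 24.1 CPM in wild-type libraries, a call lost with unscaled totals (-0.60 log2).

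Among stellate and endothelial markers more fell than rose, a balance that turned for the endothelial list with unscaled totals. Of 18 stellate cell and myofibroblast markers 1 rose and 6 fell (2 fell with unscaled totals), and their summed level was 366 to 573 CPM in the knockout and 531 to 695 CPM in wild type. Ecm1, a secreted matrix glycoprotein also made by hepatocytes, had 69.5, 69.5, 101 and 107 CPM in the knockout, against 130, 122, 147 and 184 CPM in wild type. Reelin, Reln, fell by 0.72 log2 and the collectin Colec11 by 0.72, the last call being lost with unscaled totals (-0.49). Of 22 sinusoidal endothelial markers 2 rose and 5 fell (3 fell without knockout library 1). With unscaled totals 4 rose and 2 fell, as without knockout libraries 1 and 2. The scavenging receptors Fcgr2b and Stab2 rose by 0.95 ± 0.14 and 1.03 ± 0.18 log2, and Flt1, a receptor for vascular growth factor, fell by 0.71. Bmp2, an endothelial ligand that drives hepcidin, had 13.9, 12, 16.5 and 23.5 CPM in knockout libraries and 33.2, 38.8, 36.6 and 37.2 CPM in wild-type libraries. In the erythroid and other tissue list 0 of 7 rose and 2 fell.

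Whether the genotype difference was the same on both diets was tested with the interaction, the difference between knockout and wild type after ethanol minus that on control diet. It was called for 259 genes (1.81%), 75 more positive after ethanol (0.523%) and 184 more negative (1.28%). This count hung on single libraries. It was 53 without wild-type control library 1, 56 without wild-type control library 4, 79 without wild-type control library 3, 85 without knockout control library 4, 88 without knockout control library 1, 119 without knockout control library 3, 126 without knockout control library 2, 139 without wild-type ethanol library 4, 150 without wild-type ethanol library 1, 156 without knockout ethanol library 4 and 495 without wild-type ethanol library 3. Of 35 named genes with a called interaction 16 kept it in each of the 16 fits, and those are given here.

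Ddit4, the hypoxia and stress inhibitor of mTORC1, changed sign between the diets. It had 38.8, 62.4, 32.7 and 80 CPM in knockout and 146, 224, 121 and 148 CPM in wild type after ethanol, and 19.3, 20.1, 28.1 and 14.1 CPM in knockout and 3.68, 3.94, 4.37 and 5.05 CPM in wild type on control diet. Among wild-type livers the level was far higher after ethanol than on control diet, and the knockout libraries lay between. The knockout difference was -1.58 ± 0.27 log2 after ethanol and 2.26 ± 0.30 on control diet, an interaction of -3.84 ± 0.41 log2 (SE, adjusted p = 9.18e-04). Pla2g12a, a secreted phospholipase, averaged 35 ± 2.19 CPM in knockout and 70.8 ± 9.61 CPM in wild type after ethanol, and 29.6 ± 4.76 and 20.2 ± 2.94 CPM in knockout and wild type on control diet (SD, n = 4 each). Its interaction was -1.57 ± 0.18 log2 (SE, adjusted p = 9.18e-04). Msrb3, a methionine sulfoxide reductase, was at -0.68 ± 0.12 log2 after ethanol and 0.65 ± 0.12 on control diet. Ripk4, a kinase, was at -0.69 ± 0.11 and 0.47 ± 0.11, and Arhgef3, a guanine nucleotide exchange factor, at -0.81 ± 0.09 and 0.29 ± 0.09, in the same order. Arhgef3 was not called on control diet (adjusted p = 0.0532).

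A further set of 8 genes fell after ethanol and, like Arhgef3, was not called on control diet, where the log2 fold changes of the 8 ran from -0.44 to 0.56. Il1r1 averaged 31.7 ± 3.54 CPM in knockout and 560 ± 409 CPM in wild type after ethanol, and 52.3 ± 20 and 48.4 ± 25.3 CPM in knockout and wild type on control diet (SD, n = 4 each), an interaction of -4.26 ± 0.70 log2 (SE, adjusted p = 0.012). Ciart, a clock repressor gene, had 6.02, 8.12, 7.25 and 8.06 CPM in the knockout, against 50.1, 39.8, 40.9 and 45.2 CPM in wild type after ethanol. It averaged 10.4 ± 1.7 CPM in knockout and 14 ± 5.73 CPM in wild type (SD, n = 4 each) on control diet, and its interaction was -2.14 ± 0.32 log2 (SE, adjusted p = 0.00445). Cebpb, a transcription factor of the acute phase and of regeneration, had 98.8, 61, 79.1 and 90.7 CPM in knockout libraries and 237, 251, 163 and 288 CPM in wild-type libraries after ethanol. It averaged 100 ± 4.62 CPM in knockout and 97.5 ± 20.4 CPM in wild type (SD, n = 4 each) on control diet, an interaction of -1.55 ± 0.25 log2 (SE, adjusted p = 0.00722). Aebp2, a partner of Polycomb complexes, had 31, 46.7, 41.8 and 41.3 CPM in the knockout, against 129, 128, 88.2 and 111 CPM in wild type after ethanol, and its interaction was -1.44 ± 0.19 log2 (SE, adjusted p = 0.00214). Cep85l, Arl4a, Msl3l2 and the AP-1 gene Fosl2 had interactions of -1.87, -1.05, -3.63 and -1.2 log2.

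In the other direction stood 3 genes. Etnppl averaged 260 ± 100 CPM in knockout and 52.8 ± 17.3 CPM in wild type after ethanol, and 114 ± 17.1 and 99.7 ± 19.7 CPM in knockout and wild type on control diet (SD, n = 4 each). Its interaction was 2.1 ± 0.40 log2 (SE, adjusted p = 0.0226). Clic5, a chloride channel relative, had an interaction of 1.47 log2 and Cxcl12 of 1.03 log2.

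**Figure D4:**
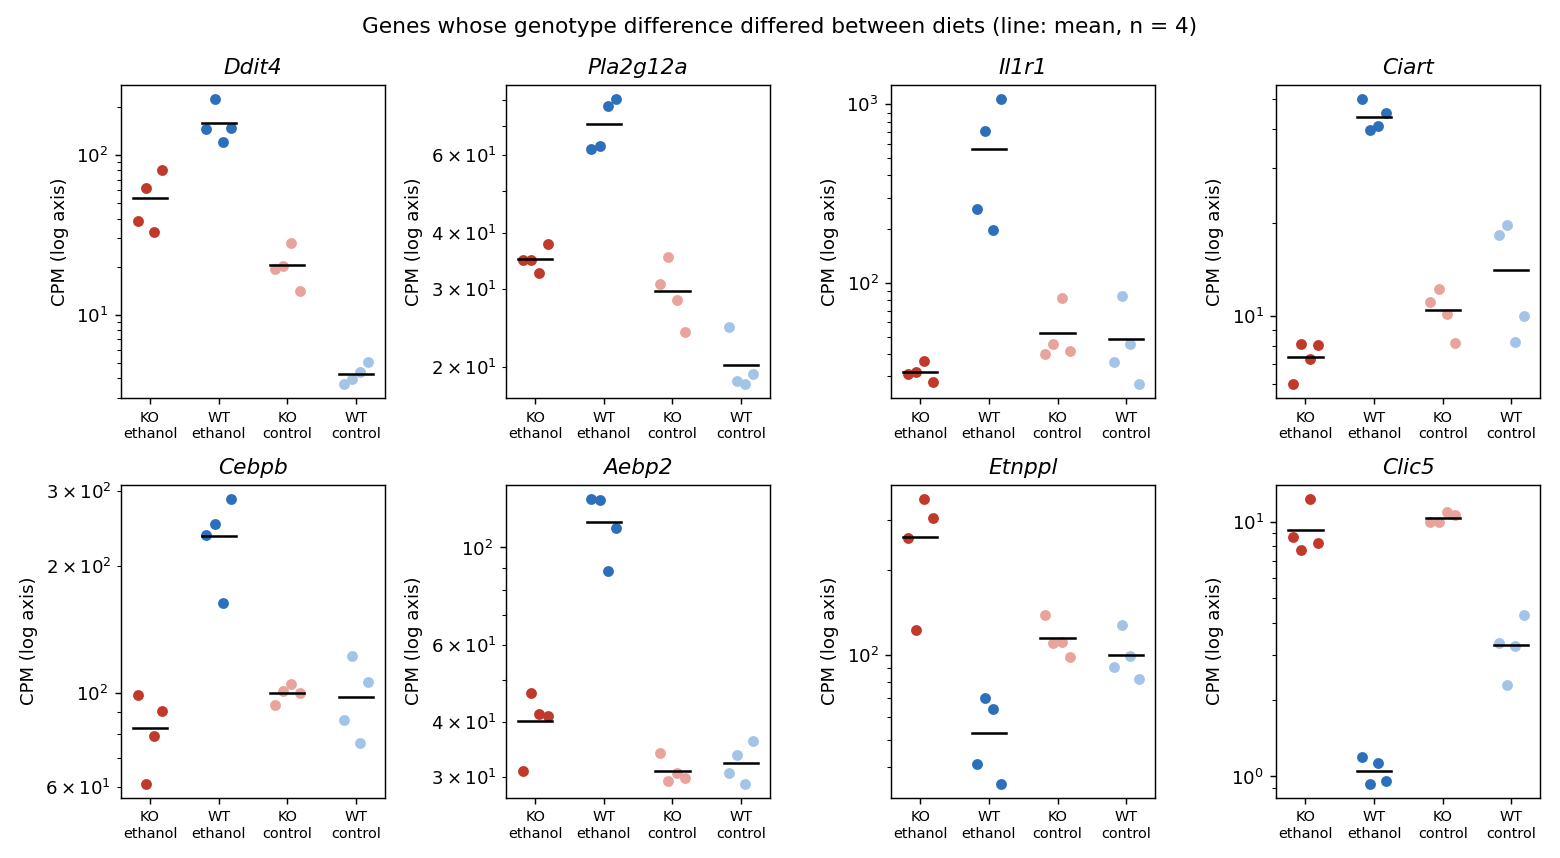
CPM (log axis) of 8 genes with a called interaction, in KO ethanol, WT ethanol, KO control and WT control libraries from left to right; lines are means of 4 libraries. For Ddit4 the KO libraries lie below WT after ethanol (32.7 to 80.0 against 121 to 224 CPM) and above WT on control diet (14.1 to 28.1 against 3.68 to 5.05 CPM).

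Stress and immediate early lists had medians of opposite sign on the diets, a contrast that was not tested for the lists. Of 17 integrated stress response genes, which ATF4 drives, 2 rose and 6 fell after ethanol, with a median of -0.60 log2 after ethanol and 0.63 on control diet (-0.35 after ethanol without wild-type library 1). Chac1, which degrades glutathione, had 12, 6.3, 6.36 and 13.2 CPM in knockout libraries and 64.1, 21.9, 17.2 and 64.6 CPM in wild-type libraries, while the stress gene Nupr1 rose by 3.49 ± 0.47 log2. Of 24 amino acid synthesis and transport genes 4 fell (2 without wild-type library 4) and 1 rose (3 with unscaled totals). Slc38a2, a glutamine transporter, had 152, 144, 139 and 261 CPM in the knockout, against 634, 586, 348 and 624 CPM in wild type. Of 15 immediate early genes 6 fell and 0 rose, with a median of -0.80 log2 after ethanol and 0.65 on control diet (3 fell without knockout libraries 1 and 2). Ier2, an early response gene, had 14.1, 17.5, 20.6 and 27.1 CPM in knockout libraries and 63.2, 35.1, 60 and 43.2 CPM in wild-type libraries, and Egr1 was at -1.94 ± 0.80 log2 with overlapping groups (adjusted p = 0.0704) and was called without knockout library 4 (-2.97), with DESeq2 (-1.94) or with voom (-2.10).

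Of 20 clock genes 4 fell (20%, close to the 19.1% of all tested genes) and 0 rose. Nfil3, a repressor of clock output, had 34.6, 24, 21.3 and 29.8 CPM in the knockout, against 105, 75.3, 50.5 and 123 CPM in wild type. The nuclear receptor gene Rora had 67.5, 72.3, 76 and 92.4 CPM in knockout libraries and 239, 98.3, 176 and 251 CPM in wild-type libraries. Of 24 endoplasmic reticulum chaperones and sensors edgeR called 0 higher and 0 lower; 2 had an unadjusted p under 0.05, DESeq2 called 1 and voom 1, and 3 were called higher with unscaled totals. Their median was 0.14 log2 (-0.34 on control diet).

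**Figure D5:**
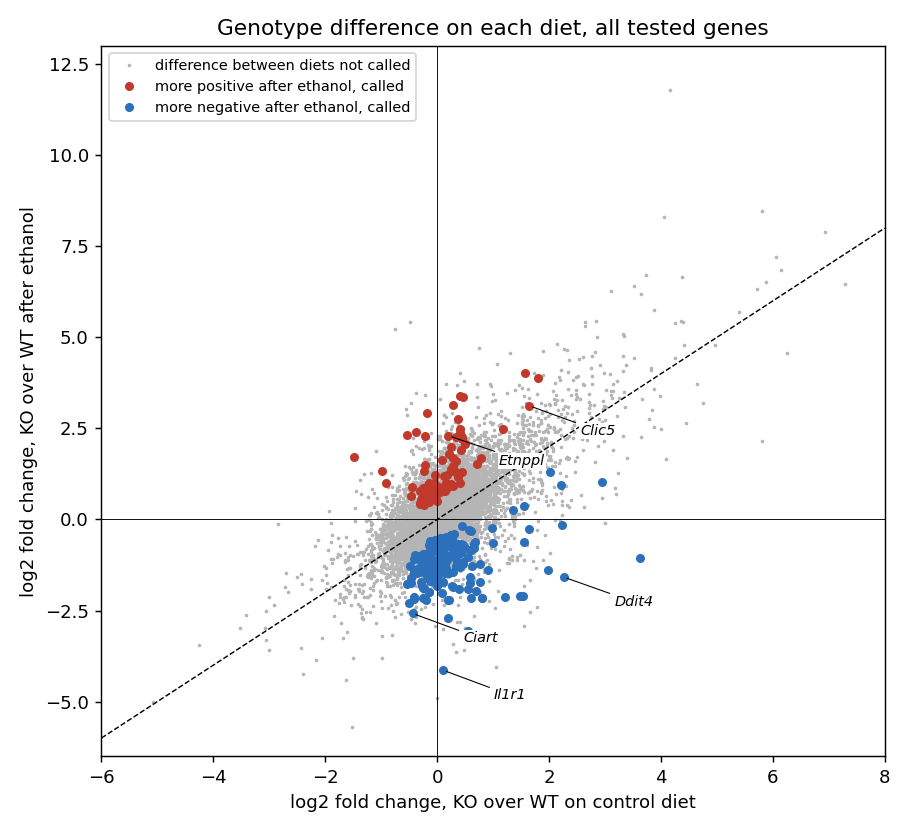
Log2 fold change of KO over WT on control diet (horizontal axis) against that after ethanol (vertical axis) for all tested genes; coloured points have a called difference between the diets and the dashed line marks equal values. Ddit4 lies at 2.26 and -1.58, and Il1r1 at 0.11 and -4.14.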

How the data were processed

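RNA of snap-frozen livers was sequenced with a polyA-selected stranded kit on an Illumina NextSeq instrument, per the labels' protocols. The authors deposited raw read counts per gene for 16 libraries; reads were trimmed with Trimmomatic 0.36, aligned to GRCm38 with HISAT2 2.1.0 and counted with HTSeq, per the submitters' processing notes. The strand setting of the counting is not given in the sources used here. Of the 281 genes open to naming, 19 overlap an exon of another gene on the same strand and 65 on the other strand in GENCODE M21, so their reads may not be fully separated.

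Here the deposited counts of genes with a symbol were filtered (filterByExpr), scaled by TMM and fitted in edgeR 4.0.16 (quasi-likelihood, robust) with the 4 groups of 4 libraries sharing 1 estimate of spread, and the contrasts were tested with Benjamini-Hochberg adjustment over all 14346 genes at 0.05. A list score in a library was the median over members of log2(CPM + 1) minus the wild-type ethanol mean. Genes were named from those called in the fit of all 16 libraries and in each of the 16 fits without 1 library: the largest rises and falls by fold (mean of at least 2 CPM, groups not overlapping) and by CPM, the smallest p in no list, the smallest interaction p, and up to 4 members of each list with the smallest p; Tsc1 and the most abundant uncalled member of each list were added, and 190 of 281 are printed. Alternatives were DESeq2 1.42.0, limma 3.58.1 voom with quality weights, other scalings, no filter, a replicate block, the 8 ethanol libraries alone, and leaving out libraries. The members and lists were chosen with earlier results of these data known. Library depth (14.71 to 21.68 M in the ethanol groups) limits genes with few counts, and count intervals cover counting error only.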

Additional observations from a re-analysis of the deposited data

Results flagged for a closer look

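The results below stood out in 1 of 2 ways: a library far from the other 3 of its group, by Dixon's test at 95%, or a knockout difference that was not the same on the 2 diets. Chance flags about 1 in 20 groups, and 190 genes and 57 lists were examined in both ethanol groups.

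Knockout library 2 was the one most often far from its group. It was high for H19 (675 CPM), Ubd (13.6), Gpnmb (17.7), Epdr1 (21), Ctsl (2735), Cxcl16 (16.4), Col1a1 (53.1), Bex2 (7.38) and E2f1 (8.29). It was low for Aldh2 (1151 CPM), Otc (373), Cyp2e1 (1431) and Hc (922). Its list scores stood apart for collagens (1.16), organic ion uptake transporters (-1.28) and amino acid genes (0.21). Knockout library 1 stood apart in the interferon score (2.44) and in Hsd3b5 (1.02 CPM), Hsd17b13 (665) and Dars (73.8), and knockout library 4 in Slc38a2 (261 CPM) and Slc17a8 (4.81).

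Among wild-type libraries, library 4 stood apart for Hp (11717 CPM), Cxcl16 (2.37) and the mTORC1 score (-0.15). Library 1 stood apart for H19 (0.155 CPM), Cfap44 (0.103), Nr1i2 (160), Foxo1 (109), Flt1 (17.2) and the interferon score (0.43). For H19 and Cfap44 these were 3 and 2 counts against 0 in the rest of the group, where any count would be flagged. Library 3 stood apart for Renbp (1.55 CPM), Lamp2 (879), Slc38a2 (348), Mbl2 (157), Dmgdh (834), and the scores of triglyceride (0.15) and cholesterol (-0.36) genes.

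The knockout difference differed between the diets, by the interaction test, for 16 named genes that kept the call without any 1 library. The interaction was negative for Ddit4 (-3.84 log2), Il1r1 (-4.26), Msl3l2 (-3.63), Ciart (-2.14), Cep85l (-1.87), Pla2g12a (-1.57), Cebpb (-1.55), Aebp2 (-1.44), Msrb3 (-1.33), Fosl2 (-1.20), Ripk4 (-1.16), Arhgef3 (-1.10) and Arl4a (-1.05). It was positive for Etnppl (2.1), Clic5 (1.47) and Cxcl12 (1.03).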

How the results depend on the processing

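Of the 5551 calls after ethanol, median-of-ratios scaling called 5515 again with the same sign, DESeq2 5486 of the 5530 to which it gave an adjusted p, the replicate block 5279, voom 4608, the fit without a filter 4519, and unscaled totals 4054, and leaving out knockout libraries 1 and 2 kept 3611, with 3 of opposite sign. The 8 ethanol libraries alone, a fit with fewer libraries, gave 3964 calls, 2059 higher and 1905 lower, and kept 3910 of the 5304 calls it tested. In that fit 18 of the 57 lists had a count of rises or falls that moved by over 1.5 times, such as 2 falls in place of 6 for bile acid genes, 2 in place of 5 for pericentral genes and 3 in place of 7 for complement and coagulation genes. Leaving out 1 library gave 4887 to 5627 calls, 2460 to 2917 higher and 2283 to 2767 lower. With unscaled totals 1243 genes were called lower after ethanol and 250 on control diet, and a fold of at least 2 as well left 1961 genes after ethanol. On control diet voom called 3603 genes, 1959 higher and 1644 lower, and leaving out 1 library gave 1091 to 2167 calls, 720 to 1307 higher and 371 to 860 lower.

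The interaction count depended on most choices. It was 101 with unscaled totals (31 positive, 70 negative), 116 without knockout ethanol libraries 1 and 2 (44 and 72), 761 with DESeq2 (305 and 456) and 545 with voom (180 and 365). Without 1 library it ran from 53 to 495, the positive calls from 10 to 163 and the negative from 42 to 332. The cause was not tested.

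Tsc1 kept its direction and lost its call with unscaled totals (-0.17 log2), no filter (-0.35), the replicate block (-0.36), without knockout ethanol libraries 1 and 2 (-0.27), with the 8 ethanol libraries alone (-0.35) and with voom (-0.40), and ran from -0.43 to -0.28 without 1 library. The albumin share differed by -4.15 to -3.07 percentage points and the mitochondrial share by 1.72 to 2.97 without 1 library. Lamtor2, which was not called, was at 0.03 log2 with unscaled totals, opposite in sign. DESeq2 gave no adjusted p for H19. Serpina3k, Mat1a, Aldh2, Pcx, Cyp2e1 and Rgn were not called with the 8 ethanol libraries alone.

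Same-numbered ethanol libraries showed little joint deviation (correlations of 0.017, 0.0347, 0.165 and -0.142 across genes for numbers 1 to 4). Between the control groups the correlations were 0.0953, 0.0556, 0.414 and 0.12. With 4 libraries a group these values cannot settle whether the numbers pair libraries. With the replicate block 5532 genes were called after ethanol, 1778 on control diet and 255 in the interaction, Mt1 was called (-2.18 log2), and 5 metallothionein and zinc genes fell in place of 3. Precision is limited by 4 libraries a group and by depth for genes with few counts.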
